A study of Homo sapiens with 4 samples.

Results

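The mitochondrially encoded transcripts were taken as all genes whose symbol starts with MT-, matched by gene ID, which gave 37 of the 61852 genes in the files: 13 mRNAs, 2 rRNAs and 22 tRNAs. Poly(A)-selected RNA was sequenced in 4 libraries from H1299, an established non-small-cell lung carcinoma line whose labelled genotype is p53-/-. In 2 libraries the cells expressed CASM34 and in 2 they expressed p53WT, and the title of the series concerns cancer-associated synonymous mutations, which change the DNA of a gene but not the protein sequence. The labels state no treatment and do not spell out which change CASM34 carries or how either form was expressed. They do not say that the libraries of a group came from separate cultures, so the p-values speak only for these libraries. A library of the parental cells without p53 was not analysed here.

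The mitochondrial genome is a small circle that is transcribed on both strands into long precursors. The tRNAs lie between most of the other genes, and their excision frees the mRNAs and rRNAs, most of which then receive short poly(A) tails. The mRNAs encode core subunits of respiratory complexes I, III and IV and of ATP synthase (complex V), whose other subunits come from the nucleus, and MT-ND6 is the one mRNA made from the opposite strand.

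The libraries held 26906095 and 18086983 estimated counts in CASM34 and 21717726 and 25969760 in p53WT. The epithelial keratin genes KRT8 (501 to 556 CPM, normalised counts scaled to a common library size) and KRT18 (1011 to 1035 CPM) were high in all 4 libraries. The leukocyte genes PTPRC and CD3E had 0 counts, the endothelial gene PECAM1 at most 2, and the fibroblast collagen gene COL1A1 46 to 58 counts per library.

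All 37 genes matched the GENCODE 29 annotation of GRCh38 in identifier and length. On chrM 28 of them lie on the plus strand and 9 on the minus strand. The minus-strand genes are MT-ND6 (chrM:14149-14673) and 8 tRNAs. Some neighbouring genes overlap. MT-ATP8 (chrM:8366-8572) and MT-ATP6 (chrM:8527-9207), both ATP synthase subunits, share 46 bases. MT-ND4L (chrM:10470-10766) and MT-ND4 (chrM:10760-12137), both complex I subunits, share 7 bases, and MT-ATP6 and MT-CO3 share 1. The mean fragment was about 300 bases, longer than any of these shared stretches. Estimated counts of MT-ATP8, MT-ND4L, MT-ND4 and MT-CO3 were whole in all 4 libraries (tolerance 0.001), and those of MT-ATP6 were not. No splitting of reads between these neighbours therefore shows in the counts. The shared bases are given below in capitals with 12 bases on either side, from the GENCODE 29 transcripts, plus strand, chrM:8515-8584 for the first and chrM:10748-10778 for the second.
MT-ATP8/MT-ATP6: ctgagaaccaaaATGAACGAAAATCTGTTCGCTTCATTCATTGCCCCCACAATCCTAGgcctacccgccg
MT-ND4L/MT-ND4: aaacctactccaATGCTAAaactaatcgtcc

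The annotated 3′ ends of the 13 mRNAs differ in how they close the last codon. In the annotation 7 of the 13 mRNAs end with a complete stop codon and 6 end within a codon, where the poly(A) tail supplies the missing bases. The last 15 bases of 8 mRNAs follow, 5′ to 3′ on the sense strand, with the complete stop codon or the bases of the unfinished last codon in capitals. In mitochondria AGA and AGG stand at the ends of MT-CO1 and MT-ND6.
MT-ND2 (chrM:5497-5511): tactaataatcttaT
MT-ND3 (chrM:10390-10404): tagactgaaccgaaT
MT-ND4 (chrM:12123-12137): ccgggttttcctctT
MT-ND1 (chrM:4248-4262): tccccctcaaaccTA
MT-CYB (chrM:15873-15887): tactcaaatgggccT
MT-ATP6 (chrM:9193-9207): cacgacaacacaTAA
MT-CO1 (chrM:7431-7445): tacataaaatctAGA
MT-ND6 (chrM:14149-14163, minus strand): gctcgggggaatAGG

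The mitochondrial genes took a larger share of the counts in CASM34 than in p53WT on average, but the lower CASM34 library and the higher p53WT library held almost the same share. The share was 1.81% (exact 95% binomial interval 1.81% to 1.82%) and 1.45% (1.45% to 1.46%) in the CASM34 libraries, against 1.44% (1.43% to 1.44%) and 1.09% (1.09% to 1.10%) in the p53WT libraries. The mean was 1.63% ± 0.256 in CASM34 and 1.27% ± 0.245 in p53WT (SD, n = 2 each), a difference of 0.367 percentage points. The intervals cover counting error only, and the spread between libraries of a group was far wider than they are. An exact two-sided permutation test gave p = 0.333, the smallest that the 6 splits of 2 against 2 libraries allow, so the design could not pass a threshold of 0.05. The difference was 0.186 percentage points without CASM34 replicate 1 and 0.194 without p53WT replicate 2, and 0.548 without CASM34 replicate 2. The 13 mRNAs made up most of the share, with 1.71% and 1.37% of the counts in CASM34 and 1.35% and 1.03% in p53WT. The rRNAs held 0.0996% and 0.0845% in CASM34 and 0.0835% and 0.0620% in p53WT. By TPM, which divides counts by effective transcript length, the share was 4.90% and 4.10% in CASM34 and 4.01% and 3.06% in p53WT. In bulk RNA, fewer cells with a high content and less RNA per cell cannot be told apart.

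**Figure D1:**
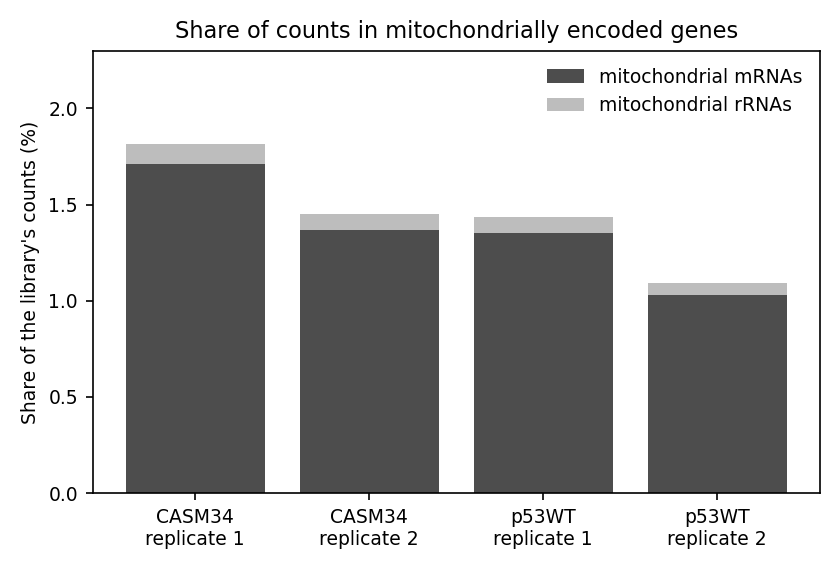
Share of each library's estimated counts in mitochondrial mRNAs (dark) and rRNAs (light), in percent on the vertical axis, 1 bar per library. The shares in all members run from 1.81% in CASM34 replicate 1 to 1.09% in p53WT replicate 2, with CASM34 replicate 2 (1.45%) and p53WT replicate 1 (1.44%) side by side.

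The pairs of libraries give the same picture for the 13 mRNAs one by one. Between groups, the median log2 ratio of normalised counts was 0.73 for CASM34 replicate 1 over p53WT replicate 2, 0.39 for CASM34 replicate 2 over p53WT replicate 2 and 0.34 for CASM34 replicate 1 over p53WT replicate 1. It was -0.04 for CASM34 replicate 2 over p53WT replicate 1, where 5 of the 13 mRNAs were higher in the CASM34 library. Within groups it was 0.37 for CASM34 replicate 1 over CASM34 replicate 2 and 0.40 for p53WT replicate 1 over p53WT replicate 2. The libraries of 1 group thus lay as far apart as the groups did. Over the 15 mRNAs and rRNAs, CASM34 replicate 1 was the highest library for 13 and p53WT replicate 2 the lowest for all 15.

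**Figure D2:**
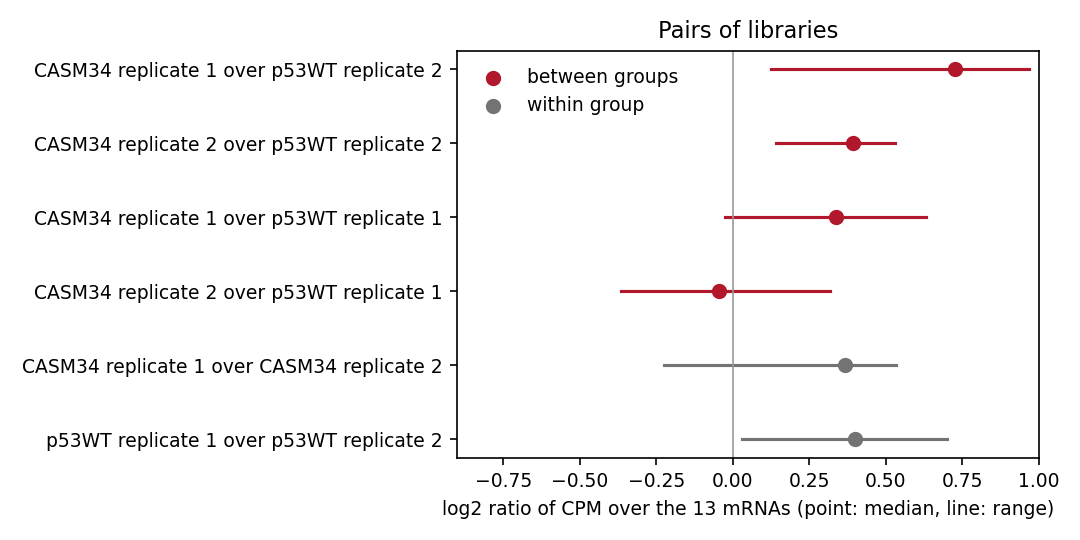
log2 ratio of normalised counts over the 13 mRNAs for each of the 6 pairs of libraries (point: median, line: lowest to highest mRNA), with pairs between groups in red and within a group in grey. The within-group medians of 0.37 and 0.40 lie among the between-group medians, which run from -0.04 to 0.73.

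Tested gene by gene with edgeR's quasi-likelihood test over all 15965 genes that passed the filter on low counts, 2 of the 13 mRNAs rose in CASM34 (Benjamini-Hochberg adjusted p under 0.05), none fell and 11 did not pass. Both risers, MT-ND2 and MT-ND6, encode subunits of complex I, the NADH dehydrogenase. Across all genes tested 1.61% rose and 1.95% changed in either direction. The test estimates spread partly across all genes, so its p-values and SE do not rest on a gene's own libraries alone. Each of the 13 mRNAs and both rRNAs had a fitted log2 fold change above 0. The median of the 13 was 0.35, with a range of 0.11 to 0.56, beside a median of -0.00 over all genes tested. The median of the 13 was 0.16 without CASM34 replicate 1 and 0.15 without p53WT replicate 2, and 0.52 and 0.57 without the other library of each group. For 5 of the 13 mRNAs both CASM34 libraries lay above both p53WT libraries, and 24.5% of all genes tested did so. At an unadjusted p under 0.05 there were 11 of the 13 mRNAs and both rRNAs, beside 17.1% of all genes tested.

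**Figure D3:**
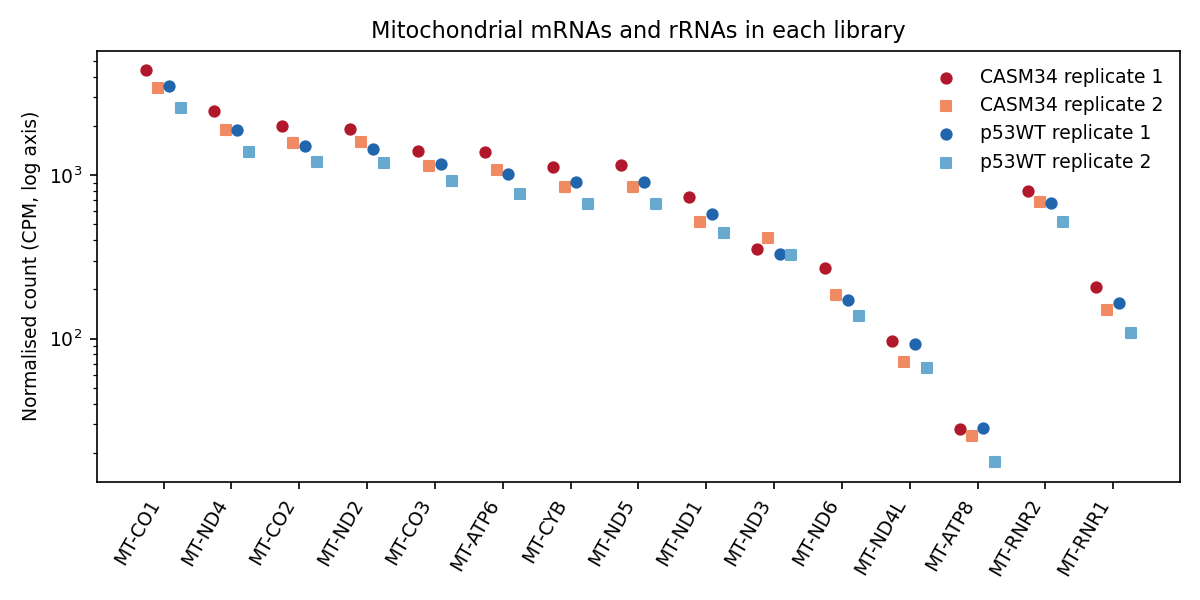
Normalised counts (CPM, log axis) of the 13 mRNAs and 2 rRNAs in each library, with CASM34 in red and p53WT in blue, circles for replicate 1 and squares for replicate 2. p53WT replicate 2 is the lowest library for all 15, and CASM34 replicate 1 is the highest for 13.

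Complex I holds 7 of the mRNAs. MT-ND2 (chrM:4470-5511) had 1919 and 1583 CPM in CASM34, against 1450 and 1178 CPM in p53WT. The groups did not overlap, although the gap between CASM34 replicate 2 and p53WT replicate 1 was smaller than that between replicates of either group. Its log2 fold change was 0.41 (SE 0.09, edgeR adjusted p = 0.0381). MT-ND6, the minus-strand mRNA, had 268 and 185 CPM in CASM34, against 173 and 137 CPM in p53WT. Here too the groups stood apart by less than the replicates did, and the fitted change was the largest of the 13, at 0.56 (SE 0.13, edgeR adjusted p = 0.0489). How far poly(A) selection keeps MT-ND6 mRNA was not tested, so its CPM need not follow its level in the cells. Both calls were lost without p53WT replicate 2 (edgeR adjusted p = 0.201 for MT-ND2 and 0.214 for MT-ND6) and with DESeq2 (adjusted p = 0.370 and 0.501). Of the 15 mRNAs and rRNAs, 8 were called when CASM34 replicate 1 was left out and 14 when CASM34 replicate 2 was, fits in which 3.04% and 5.53% of all genes tested were called. Leaving out p53WT replicate 1 gave 10 calls (0.649% of all genes), and leaving out p53WT replicate 2 gave 0 (0.936% of all genes), with 5 at an unadjusted p under 0.05 (12.6% of all genes). DESeq2 called 0 of the 15 and 2.05% of the genes to which it gave an adjusted p, with 2 of the 15 and 8.73% of all genes at an unadjusted p under 0.05.

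MT-ND3 (chrM:10059-10404) did not follow the order of the other mRNAs. It had 353 and 413 CPM in CASM34, against 331 and 324 CPM in p53WT, so CASM34 replicate 2 was the higher of its group and the p53WT libraries were nearly level. Its log2 fold change was 0.22 (SE 0.06, edgeR adjusted p = 0.0859). MT-ND4 had 2452 and 1878 CPM in CASM34, against 1882 and 1387 CPM in p53WT. For MT-ND4 the lower CASM34 library and the higher p53WT library differed by less than 1%, and its log2 fold change of 0.41 (SE 0.12) did not pass (edgeR adjusted p = 0.110).

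The remaining complex I mRNAs overlapped between the groups. MT-ND5 (chrM:12337-14148) had 1157 and 843 CPM in CASM34, against 901 and 662 CPM in p53WT. MT-ND1 (chrM:3307-4262) had 729 and 519 CPM in CASM34, against 577 and 443 CPM in p53WT. In both, p53WT replicate 1 exceeded CASM34 replicate 2, and the log2 fold changes were 0.36 (SE 0.13, edgeR adjusted p = 0.187) for MT-ND5 and 0.29 (SE 0.13, edgeR adjusted p = 0.266) for MT-ND1. MT-ND4L had 96.5 and 72.3 CPM in CASM34, against 93.1 and 65.6 CPM in p53WT. Its fitted change, 0.11 (SE 0.14, edgeR adjusted p = 0.735), was the smallest of the 13, and the sign was negative without CASM34 replicate 1 and without p53WT replicate 2.

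MT-CYB (chrM:14747-15887), cytochrome b and the single mitochondrial subunit of complex III, had 1112 and 851 CPM in CASM34, against 912 and 663 CPM in p53WT. The groups overlapped, and the fitted change was 0.32 (SE 0.13, edgeR adjusted p = 0.209). In complex IV, cytochrome c oxidase, MT-CO1 (chrM:5904-7445) had 4372 and 3389 CPM in CASM34, against 3501 and 2583 CPM in p53WT. It was the most abundant member by counts, and its groups overlapped (log2 fold change 0.35, SE 0.12, edgeR adjusted p = 0.152). MT-CO2 (chrM:7586-8269) had 1985 and 1575 CPM in CASM34, against 1512 and 1198 CPM in p53WT. MT-CO3 (chrM:9207-9990) had 1405 and 1136 CPM in CASM34, against 1171 and 926 CPM in p53WT. For MT-CO2 the groups did not overlap and for MT-CO3 they did, and neither passed (log2 fold changes 0.39 and 0.28, edgeR adjusted p = 0.0697 and 0.174).

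The complex V mRNAs share a transcript in human cells. MT-ATP6 had 1386 and 1079 CPM in CASM34, against 1014 and 769 CPM in p53WT. MT-ATP8 had 28.0 and 25.3 CPM in CASM34, against 28.5 and 17.5 CPM in p53WT. The groups did not overlap for MT-ATP6, whose log2 fold change of 0.47 (SE 0.11) was just outside the threshold (edgeR adjusted p = 0.0579), and they overlapped for MT-ATP8 (0.23, SE 0.16, edgeR adjusted p = 0.498). MT-ATP8 was below 0 without p53WT replicate 2.

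**Figure D4:**
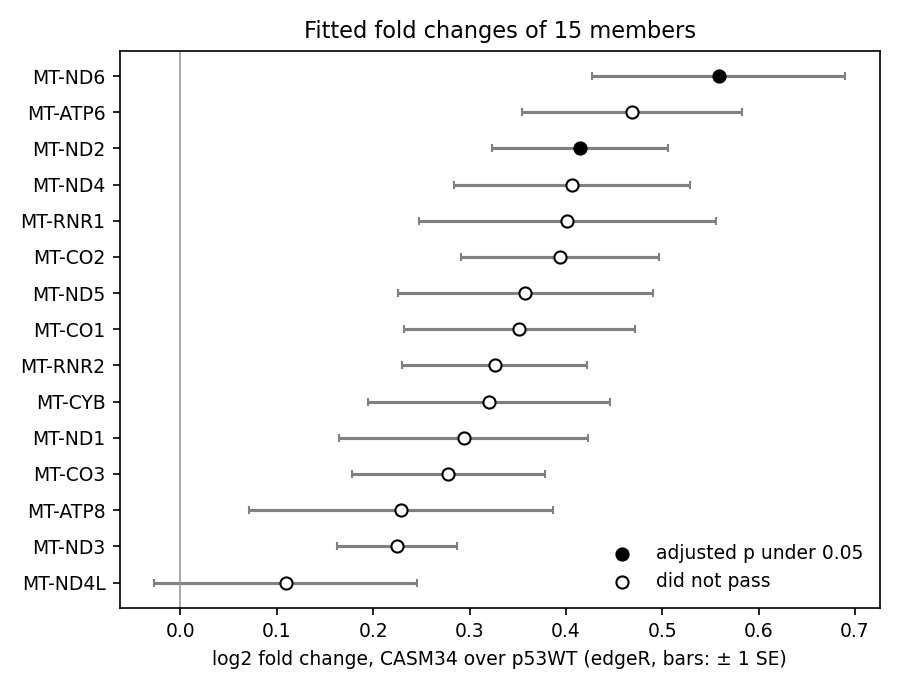
Fitted log2 fold changes of the 13 mRNAs and 2 rRNAs, CASM34 over p53WT, with bars of 1 SE and filled points for adjusted p under 0.05. All 15 points lie above 0, from 0.11 for MT-ND4L to 0.56 for MT-ND6, and MT-ND2 and MT-ND6 are filled.

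MT-RNR2 (chrM:1671-3229), the 16S rRNA of the large mitochondrial ribosomal subunit, had 798 and 687 CPM in CASM34, against 670 and 516 CPM in p53WT. MT-RNR1 (chrM:648-1601), the 12S rRNA of the small subunit, had 206 and 150 CPM in CASM34, against 164 and 108 CPM in p53WT. MT-RNR2 did not overlap between the groups and MT-RNR1 did, and neither passed (log2 fold changes 0.33 and 0.40, edgeR adjusted p = 0.103 and 0.201). Poly(A) purification keeps rRNA only in part, so these values are not the level of rRNA in the cells.

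Of the 22 tRNA genes, 18 had no count in any library. The other 4, MT-TY, MT-TF, MT-TA and MT-TS1, summed to 2 and 3 counts in the CASM34 libraries and to 0 and 0 in the p53WT libraries. A count of 0 allows up to 3 counts, which is 0.138 and 0.116 CPM in the p53WT libraries. The tRNAs are 59 to 75 bases long, which is shorter than the sequenced fragments, and the files give all 22 an effective length of 0. The tRNAs were therefore not measurable in these libraries.

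Seen relative to each other, the abundant mRNAs kept nearly the same proportions in all 4 libraries. Of the counts in the 13 mRNAs, complex I held 40.4% and 40.5% in CASM34 and 39.9% and 40.5% in p53WT, and complex IV held 45.0% and 45.0% in CASM34 and 45.7% and 45.5% in p53WT. MT-CO1 alone held 25.3% and 25.0% in CASM34 and 25.8% and 24.9% in p53WT. The groups overlapped in 8 of the 13 proportions, CASM34 was above p53WT in 2 and below in 3. By CPM, CASM34 lay wholly above p53WT in 3908 of the 15965 genes tested and wholly below in 3737. An exact two-sided permutation test of 2 against 2 libraries gives p = 0.333 at the smallest, so the order alone could not pass 0.05. MT-ATP6 was above, with 8.03% and 7.97% in CASM34 and 7.49% and 7.43% in p53WT. MT-CO3, its neighbour downstream, was below, with 8.14% and 8.38% in CASM34 and 8.64% and 8.94% in p53WT. MT-ND4L was below as well, with 0.559% and 0.533% in CASM34 and 0.687% and 0.633% in p53WT. The other one above was MT-ND6 and the other one below MT-ND1. With the sum of the 13 mRNAs as the library size, edgeR called 0 of the 15 members, and 0 had an unadjusted p under 0.05. In that fit the standard errors were 0.27 to 0.35, so it could resolve only large changes. All genes tested were scaled by the mitochondrial sum there. The common dispersion, the spread shared across genes, was 0.0384, against 0.00193 in the main fit.

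**Figure D5:**
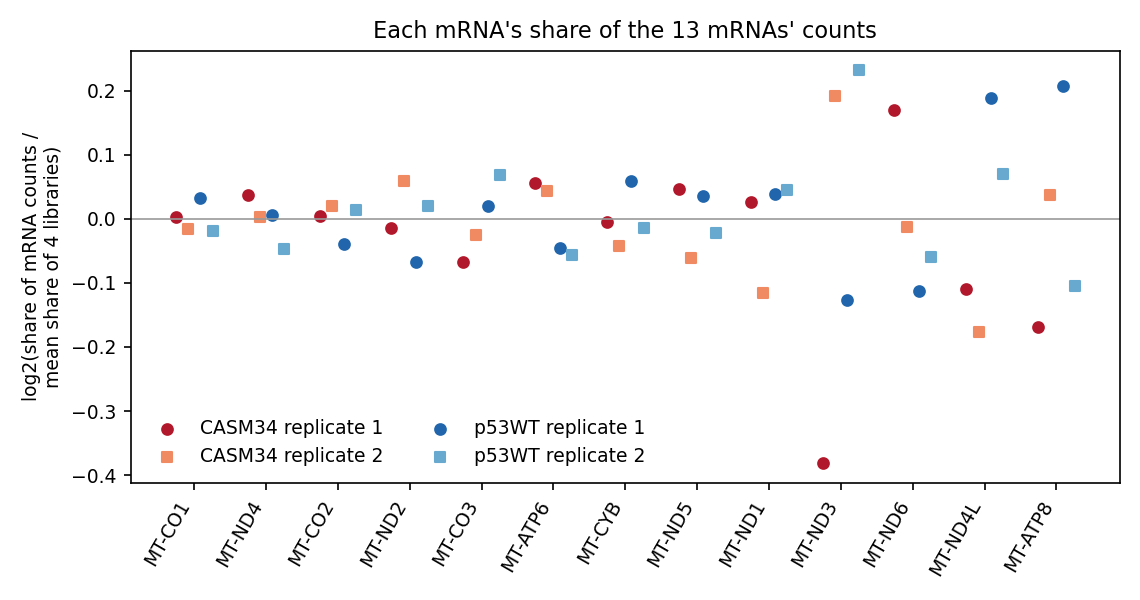
Each mRNA's share of the counts in the 13 mRNAs, as the log2 of its ratio to the mean share of the 4 libraries, with CASM34 in red and p53WT in blue. The abundant mRNAs stay close to 0, and the widest spread is in MT-ND3, with 2.05% and 3.04% in CASM34 and 2.44% and 3.13% in p53WT.

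MT-ND6 was also compared with the 12 mRNAs of the other strand. It came to 1.58% and 1.39% of their counts in CASM34, against 1.29% and 1.34% in p53WT. The mean log2 ratio was -6.08 ± 0.13 in CASM34 and -6.25 ± 0.04 in p53WT (SD, n = 2 each), a difference of 0.17 with an exact two-sided permutation p = 0.333. Without CASM34 replicate 1 the difference was 0.07, and without CASM34 replicate 2 it was 0.26. The groups did not overlap, but the gap between the CASM34 libraries was no smaller than that between the group means. The strand setting of the counting is not given in the sources used here, so reads of MT-ND6 and of transcripts of the opposite strand over the same bases cannot be told apart.

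Levels per length gave another order than counts. By TPM averaged over the 4 libraries, MT-ND3 came first (7406), then MT-ATP8 (5542), MT-CO2 (4867) and MT-ND4L (3422), with MT-ATP6 (3324) and MT-CO1 (3310) next. The lowest mRNAs were MT-ND1 (1028), MT-ND6 (1014) and MT-ND5 (699), and the rRNAs followed at 630 for MT-RNR2 and 286 for MT-RNR1. MT-ND5 averaged 782 ± 172 TPM in CASM34 and 616 ± 142 TPM in p53WT, and MT-CO2 averaged 5508 ± 872 TPM in CASM34 and 4226 ± 778 TPM in p53WT (SD, n = 2 each). Neighbours in this order such as MT-ND4L, MT-ATP6 and MT-CO1, or MT-ND1 and MT-ND6, changed places between libraries. MT-ND6 lay above MT-ND1 in CASM34 (1416 and 986 TPM against 1315 and 940). In p53WT it lay below (939 and 716 TPM against 1062 and 796). Differences between neighbours were not tested. The TPM of the short genes rests on small effective lengths, 4.56 to 6.15 bases for MT-ATP8 of 207, 26.95 to 29.54 for MT-ND4L of 297 and 56.1 to 58.6 for MT-ND3 of 346. Their place in the order moves with the fragment length assumed. How far poly(A) selection kept each mRNA and rRNA was not tested, so the order in the cells may differ.

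Nuclear copies of mitochondrial DNA can take reads from the members. The annotation names 404 such pseudogenes, of which 18 had any count, and their sum came to 0.191% and 0.199% of the members' counts in CASM34 and 0.164% and 0.179% in p53WT. MTCO1P12 on chromosome 1 (chr1:631074-632616, plus strand) held nearly all of it, with 898 and 495 counts in CASM34 and 494 and 488 in p53WT. Against MT-CO1 those counts were 0.769% and 0.801% in CASM34 and 0.649% and 0.732% in p53WT. The next copies were small: MTCO2P12 had 9 and 9 counts in CASM34 and 5 and 5 in p53WT, MTND1P23 had 5.05 and 5.95 in CASM34 and 0 and 1.02 in p53WT. MTATP6P1 had 3.25 and 4.01 counts in CASM34 and 4.01 and 3.01 in p53WT, and MTND4P12 had 2 and 4 in CASM34 and 2 and 1 in p53WT.

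MTCO1P12 shows why such reads are uncertain. Its sequence matched MT-CO1 at 98.7% of 1542 aligned bases, with 20 mismatches and 1 gap, and the longest run without a difference was 245 bases. The 60 bases that hold 3 of the differences are given here in capitals at each differing base, from GENCODE 29 transcripts on GRCh38, plus strand.
MT-CO1 (chrM:6207-6266): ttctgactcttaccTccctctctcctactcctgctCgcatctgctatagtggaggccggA
MTCO1P12 (chr1:631377-631436): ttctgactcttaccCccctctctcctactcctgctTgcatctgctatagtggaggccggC
A read between differences fits both genes, and the estimated counts of MT-CO1 were not whole in any of the 4 libraries (tolerance 0.001). Adding the copies to the genes they are named after left the same number of members called, 2.

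Few nuclear genes that serve the mitochondrial genome were called, where 1.61% of all genes tested rose. Of 22 genes for transcription and maintenance of mitochondrial DNA, 1 rose and 21 did not pass, with 11 above 0, 11 below and a median log2 fold change of -0.01. At an unadjusted p under 0.05 there was 1, beside 17.1% of all genes tested. The riser was POLRMT, the mitochondrial RNA polymerase, with 158 and 144 CPM in CASM34 and 121 and 128 CPM in p53WT (0.27, SE 0.05, edgeR adjusted p = 0.0243). It is GC-rich, and with an offset for GC content and length its log2 fold change was 0.03 (edgeR adjusted p = 0.881). It also missed the threshold without CASM34 replicate 1 (edgeR adjusted p = 0.0541) and without p53WT replicate 1 (edgeR adjusted p = 0.182). TFAM, which packages and bends the DNA at promoters, had 92.4 and 91.1 CPM in CASM34 and 93.8 and 94.0 CPM in p53WT. TFAM, the promoter-opening factor TFB2M, the elongation factor TEFM and the DNA polymerase gene POLG did not pass, at -0.03, -0.11, -0.24 and 0.05 (edgeR adjusted p = 0.768, 0.410, 0.432 and 0.634).

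Of 21 genes for processing, tailing and decay of mitochondrial RNA, 1 rose and 20 did not pass, with 5 above 0, 16 below and a median of -0.04. An unadjusted p under 0.05 was found for 5, beside 17.1% of all genes tested. Both CASM34 libraries lay below both p53WT libraries for 8 and above for 1. Over the 15965 genes tested those counts were 3737 and 3908. FASTK, whose mitochondrial form is known to be needed for MT-ND6 mRNA, had 90.7 and 89.8 CPM in CASM34 and 78.1 and 78.3 CPM in p53WT. Its groups were well apart (0.21, SE 0.05, edgeR adjusted p = 0.0453), and the GC and length offset took its fold change to -0.00447 (edgeR adjusted p = 0.985). FASTK passed in 1 of the 4 fits that leave out a library, the one without CASM34 replicate 2; in the others the edgeR adjusted p was 0.0969 to 0.207. LRPPRC and SLIRP, partners that bind and stabilise mitochondrial mRNAs, had log2 fold changes of -0.04 and 0.05, neither of which passed (adjusted p = 0.722 and 0.822 from edgeR).

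The nuclear partners of the encoded proteins had a median near 0. Of 75 nuclear subunits of complexes I, III, IV and V, 1 rose, none fell and 74 did not pass, with 26 above 0, 49 below and a median log2 fold change of -0.04. Over all genes tested 1.61% rose. An unadjusted p under 0.05 was found for 19 of the 75, beside 17.1% of all genes tested. With the offset for GC content and length 40 were above 0 and 35 below, with a median of 0.02. NDUFB2, an accessory subunit of complex I, was then the 1 that passed, at 0.27 (edgeR adjusted p = 0.0476). The riser was NDUFS7, an iron-sulfur subunit of complex I, with 78.5 and 78.1 CPM in CASM34 and 62.0 and 68.2 CPM in p53WT (0.27, SE 0.06, edgeR adjusted p = 0.0315). The same offset took it to 0.04 (edgeR adjusted p = 0.848), and its call was also lost when p53WT replicate 1 was left out (edgeR adjusted p = 0.234). By complex the medians were -0.01 over 37 subunits of complex I, -0.05 over 9 of complex III, -0.05 over 11 of complex IV and -0.06 over 18 of complex V. None of the 11 nuclear subunits of complex IV passed. All 11 had a log2 fold change below 0, against 6 of 11 with the offset, and 3 had an unadjusted p under 0.05, beside 17.1% of all genes tested.

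Histone and small structural RNAs listed as lacking a tail should largely be removed by poly(A) purification. Those tested lay in the same direction as the members. Of 7 tested, 0 passed the edgeR test and 4 had an unadjusted p under 0.05, beside 17.1% of all genes, with all 7 above 0 and a median log2 fold change of 0.37. RN7SL1, the RNA of the signal recognition particle, had 22.2 and 11.7 CPM in CASM34 and 12.9 and 10.3 CPM in p53WT. Its highest library was CASM34 replicate 1 and its lowest p53WT replicate 2, as for most members. RN7SL2 had 29.4 and 15.6 CPM in CASM34 and 15.3 and 15.4 CPM in p53WT, with CASM34 replicate 1 alone standing high. The histone gene H2AC6 was highest in the other CASM34 library, with 26.4 and 32.1 CPM in CASM34 and 23.0 and 22.1 CPM in p53WT. It passed with the offset for GC content and length, at 0.46 (edgeR adjusted p = 0.0321). The part of such differences between the libraries in the mitochondrial share was not tested.

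With the offset for GC content and length, the median of the 13 mRNAs was 0.48 rather than 0.35. MT-ND2 then stood at 0.49 (edgeR adjusted p = 0.0492) and MT-ND3, which had not passed before, at 0.50 (edgeR adjusted p = 0.00379). MT-ND6 was at 0.72 but no longer passed (edgeR adjusted p = 0.0668). MT-ATP8 and MT-ND4L, short like MT-ND3, went from 0.23 to 0.84 and from 0.11 to 0.50. Neither passed (edgeR adjusted p = 0.191 and 0.373). How much of the shift in these short genes came from the length part of the offset was not tested. The members' transcripts are 39.6% to 47.7% GC. Over all genes tested, the offset lowered the number of calls to 62 (0.388%), against 312 without it.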

How the data were processed

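Tools named in the submitters' processing notes are STAR, RSEM and Trim Galore, with the build GRCh38. Tool versions, gene annotation and strand setting were not given in the sources used here. Expected counts are estimated counts that the authors' RSEM run gave per gene, per the file headers, and reads that fit several genes are shared among them. The deposited TPM values were used for levels per length. Counts were rounded and compared with edgeR 4.0.16 in R 4.3.3 by its quasi-likelihood F test, with TMM scaling, a filterByExpr minimum of 10 counts and no covariate. Of 61852 genes 15965 were tested, and p-values were adjusted over all of them by Benjamini-Hochberg. The SE was taken as the size of the log2 fold change over the root of F. It thus rests partly on spread estimated across genes and is not a gene's own replicate spread. The common dispersion was 0.00193. Single values per library were compared by exact permutation tests. Symbols were matched by gene ID for 61803 IDs, and coordinates are 1-based. Of 131 nuclear and tail-less genes in the lists 130 were found.

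The named genes are all mRNAs and rRNAs, tRNAs by count, the passing genes of each list with 7 regulators, and the 5 nuclear copies with the highest mean CPM. The markers PTPRC, CD3E, PECAM1, COL1A1, KRT8 and KRT18 checked the line. The offset for GC content and length fitted splines with 5 degrees of freedom each per library. Alternatives were other scalings, filters and tests, a replicate block, added nuclear copies and leaving out each library. Libraries of a group differed by more than counting error (chi-square per degree of freedom 3.94 in CASM34 and 3.90 in p53WT), so they were not treated as one library deposited again; this does not show separate cultures. The members and lists were chosen with earlier results of these data known. The scripts were tested on simulated data. The check of 1 gene is not reported here.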

Additional observations from a re-analysis of the deposited data

How the results depend on the processing

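Over 16 alternative settings the members' log2 fold changes were above 0 in 237 of 240 fits, the exceptions being MT-ND4L without p53WT replicate 2 and without CASM34 replicate 1, and MT-ATP8 without p53WT replicate 2. The number of members called, 2 as reported, was 0 with library totals, DESeq2, limma on log2(TPM + 1) and the effective length offset (12, 2, 0 and 8 at an unadjusted p under 0.05), 13 with no filter, and 0 to 14 when 1 library was left out. The number of listed genes called, 3 as reported, was 8 with no filter, 1 with DESeq2, 0 with limma on log2(TPM + 1) and with the effective length offset (6 and 15 at an unadjusted p under 0.05), and 0 (without p53WT replicate 1) to 15 (without CASM34 replicate 2) when 1 library was left out. FASTK changed sign with the GC and length offset (-0.00447). The difference in share was 0.186 to 0.548 percentage points and that of the MT-ND6 ratio 0.07 to 0.26 without 1 library. Those are plain differences of means, with no test. In the edgeR fits without 1 library, the lone library of a group is assumed to vary like the other group. The cause of these changes was not tested. Replicate numbers are shared by the titles, and the correlation of deviations between them was 0.03 over 15965 genes. Among the 13 mRNAs, though, replicate 1 exceeded replicate 2 for 12 in CASM34 and for 13 in p53WT (median log2 ratios 0.37 and 0.40). Whether the numbers pair the libraries cannot be told from 2 libraries a group. With a replicate block, 13 members and 13 listed genes were called, beside 7.26% of the 15965 genes tested. With no filter the share called over all genes was 2.97% of 26177. Over all genes tested the calls numbered 1159 with the block, 777 with no filter, 109 to 919 without 1 library and 312 as reported. Library totals gave 225 calls over all genes and DESeq2 gave 213. The effective length offset gave 5 and limma on log2(TPM + 1) gave 0. With the offset and limma, calls were thus lost over all genes, not only among the members and listed genes. The shares of all genes at an unadjusted p under 0.05 were 16.8% with library totals and 8.73% with DESeq2. They were 11.8% with the effective length offset and 9.59% with limma on log2(TPM + 1). Fragment length limits the tRNAs, and the spread between 2 libraries a group limits the other members.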
